A study of Saccharomyces cerevisiae with 8 samples.

Results

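The regulators of the yeast iron response were examined as a set of 9 genes, out of 5797 genes in each table, that were chosen by name: the transcription factors *AFT1* (YGL071W), *AFT2* (YPL202C) and *YAP5* (YIR018W), the mRNA-binding proteins *TIS11* (YLR136C, also called *CTH2*) and *CTH1* (YDR151C), the glutaredoxins *GRX3* (YDR098C) and *GRX4* (YER174C), and their partners *FRA1* (YLL029W) and *BOL2* (YGL220W, also called *FRA2*). All 9 were found in both tables, and all 9 passed the filter on low values, a mean of at least 10. The genes were picked by name and not by a threshold on these values, but with earlier results of the data known. RNA-seq had been carried out on 8 diploid strains, with 1 culture and 1 library of each, grown to mid-log phase (OD600 of 0.65 to 0.72) at 30° in YPD, a rich glucose medium with no iron added or withheld. The Malaysian parents were wild isolates, UWOPS05.227.2, UWOPS05.217.3 and UWOPS03.461.4, and each is labelled MATa/α and *HO*. The wine/European parents were BC187, also labelled MATa/α and *HO*, and RM11-1, made by mating RM11-1a with RM11-1b, with *ura3* and *ho::kanMX*. The 3 hybrids were YHL058, from UWOPS03.461.4 and RM11-1b, YHL063, from BC187 and UWOPS03.461.4, and YHL065, from BC187 and UWOPS05.217.3. All 3 are labelled MATa/α and *HO*, but the strain list of the study gives YHL058 as *HO/hoΔ::kanMX*. UWOPS05.227.2 is in no hybrid, and UWOPS03.461.4 and BC187 are each in 2 of them. Since the replicates of a population are its different isolates, the spread given below includes the differences between strains, and no strain has a repeat culture.

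In *S. cerevisiae*, iron uptake is switched on by Aft1 and its paralog Aft2, which bind promoters of transporters, reductases and cell wall proteins when iron is scarce. Cells sense iron through iron-sulfur clusters made in the mitochondria. A complex of the monothiol glutaredoxins Grx3 and Grx4 with Fra1 and the BolA-like protein Bol2 passes this signal to Aft1 and lowers its activity. Tis11 and Cth1 are zinc finger proteins that bind AU-rich elements in mRNAs of iron-using pathways and speed their decay in iron scarcity, and *TIS11* is itself a target of Aft1. Yap5 acts at the other end of the range, where it activates the vacuolar iron transporter gene *CCC1* and also *GRX4* when iron is in excess.

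The values are normalized read counts, in which the upper quartile over genes is 6442 in every parental column and 2010 in every allele column. They therefore no longer show how deeply each library was sequenced, and no counting interval can be given. Column totals ranged from 63253487 to 67038479 in the parents and from 18739636 to 20966132 in the alleles. As a check of the labels, *HO* was at 0 in RM11-1, where it is labelled as disrupted, and between 51 and 127 in the other parents. *URA3* did not set RM11-1 apart, since it was at 101 there and between 21 and 32 in the other parents, whose labels do not list *ura3*. It was thus low in all 5 parents, at percentile 0.60 of all genes, which those labels do not account for. The strain list of the study also holds *ura3Δ::kanMX hoΔ::hphMX* versions of the Malaysian isolates and BC187. In these versions *HO* is deleted as well, whereas *HO* was between 51 and 127 in the 4 parents concerned. Whether these were the strains sequenced was not tested. Of 7 haploid-specific genes, which diploids repress, 5 lay below the 7th percentile of all genes, but *MFA2* and *MF(ALPHA)2* lay at percentiles 33.5 and 43.4. The summed value of the 7 genes was between 4804 and 5112 in the 5 parents.

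Of the 9 genes, 8 had lower mean levels in Malaysian than in wine/European parents, and *GRX4* was the exception. *FRA1* and *AFT1* fell by the limma comparison over all 5792 genes tested (adjusted *P* under 0.05, Benjamini-Hochberg), the other 7 did not pass, and *YAP5* was close to level. These 2 calls among 9 genes stand beside 10.9% of all genes called in either direction, 5.82% lower and 5.06% higher. An unadjusted *P* under 0.05 was found at 6 of the 9 and at 30.5% of all genes. In 8 of the 9 genes the Malaysian and wine/European values did not overlap, 7 of them with Malaysian strains lower. Over all genes tested, the values were apart in 48.9%, apart with Malaysian strains lower in 22.4% and apart with them higher in 26.5%. The median log2 difference (Malaysian minus wine/European, on the scale of log2(value + 1), which understates changes of low values) was -0.46 over the 9 genes and 0.03 over all genes tested. The plot of the 9 genes by strain shows these values.

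**Figure D1:**
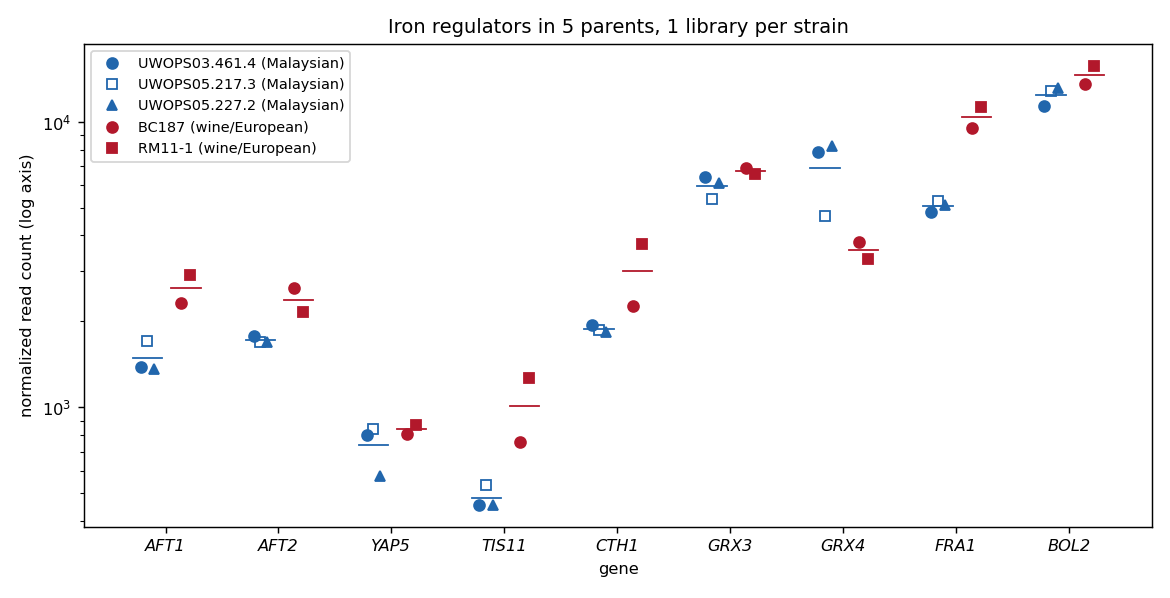
Normalized read counts (log axis) of the 9 iron regulators in the 5 parents, 1 point per strain. Blue points are Malaysian and red points wine/European strains, and horizontal lines are the group means. *GRX4* is the only gene whose Malaysian points, from 4681 to 8218, all lie above the wine/European points, and *YAP5* the only gene whose points overlap.

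*AFT1*, the main activator of iron uptake genes, lies at chrVII:372012-374084 in the S288C assembly R64 and encodes 690 residues. Its normalized read count was 1390 in UWOPS03.461.4, 1714 in UWOPS05.217.3 and 1368 in UWOPS05.227.2, against 2323 in BC187 and 2915 in RM11-1. Every Malaysian strain lay below both wine/European strains. The means were 1491 ± 194 (SD, n = 3) and 2619 ± 419 (SD, n = 2), and the log2 difference was -0.81 (standard error 0.16, adjusted *P* = 0.0372 from limma). This call did not hold without UWOPS03.461.4, UWOPS05.227.2 or RM11-1, where the adjusted *P* from limma was 0.152, 0.155 and 0.0672, with log2 differences of -0.76, -0.75 and -0.65.

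*AFT2* (chrXVI:168088-169338) encodes the shorter paralog of Aft1, with 416 residues. It was at 1775 in UWOPS03.461.4, 1701 in UWOPS05.217.3 and 1697 in UWOPS05.227.2, at 2618 in BC187 and at 2155 in RM11-1. The Malaysian strains were within a narrow range below both wine/European strains, but the log2 difference of -0.46 (standard error 0.12) did not pass (adjusted *P* = 0.0707 from limma). Without RM11-1 it was -0.60 (adjusted *P* = 0.0305 from limma) and without BC187 -0.32 (adjusted *P* = 0.126), and the adjusted *P* was between 0.127 and 0.244 without any 1 of the Malaysian strains. RM11-1 was above BC187 for *AFT1* and below it for *AFT2*. The coding sequences of *AFT1* and *AFT2*, of 2073 and 1251 bases, were aligned over their whole length with gaps allowed, which paired 1219 bases in total. They are identical at 70.0% of these, with no shared run longer than 17 bases.

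*YAP5* (chrIX:384609-385346) encodes the activator of iron storage. Its values were 800 in UWOPS03.461.4, 843 in UWOPS05.217.3 and 577 in UWOPS05.227.2, 810 in BC187 and 866 in RM11-1. The populations overlapped, and the low value was that of UWOPS05.227.2. The log2 difference was -0.20 with a 95% interval from -0.69 to 0.29 (adjusted *P* = 0.541 from limma), an interval that leaves room for a difference of either sign.

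*TIS11* (chrXII:415801-416658) and *CTH1* (chrIV:764178-765155) encode the paired mRNA-decay factors. Because *TIS11* is a known Aft1 target, and to show what the regulators themselves carry, the 250 bases before each start codon were searched on both strands for the Aft core site CACCC, its longer form TGCACCC and the Yap5 element TTACTAA. The sequences are those of the S288C reference, not of the isolates. The core site, which is contained in the longer form, was in the window of 16.2% of 5789 genes, and of 3 of the 9 regulators: *TIS11* with 3 matches, *CTH1* with 1 and *FRA1* with 1. The longer form was in 1.12% of all windows and among the regulators only in *TIS11*, with 2 matches. Of the Aft1 and Aft2 target list described below, 69.2% had the core site and 46.2% the longer form. The Yap5 element was in 6.74% of all windows and among the regulators only in *CTH1*. Of the 3 Yap5 targets searched, *GRX4* among them, 0 had a match. No match means only that these letters were not in this window. The matches follow 5′ to 3′ on the strand of the gene, with the motif (or its reverse complement) in capitals. They are shown because they are the windows in which a regulator of the set carries the letters of a motif known for another regulator of the set.
*TIS11*, chrXII:416890-416908, minus strand, 249 to 243 bases before the start codon: aTGCACCCacattaaagaa
*TIS11*, chrXII:416859-416885, minus strand, core 216 to 212 bases before the start codon: acgccaatcgaCACCCtaatttggagg
*TIS11*, chrXII:416814-416842, minus strand, reverse complement 173 to 167 bases before the start codon: cacatgcagttGGGTGCAttgtgccagca
*CTH1*, chrIV:765232-765258, minus strand, core 92 to 88 bases before the start codon: tttagcctcttCACCCataagttgatt
*CTH1*, chrIV:765358-765386, minus strand, Yap5 element 220 to 214 bases before the start codon: agtgtgagcagTTACTAAtatactggatc
*FRA1*, chrXII:81211-81231, plus strand, core 245 to 241 bases before the start codon: aatcgCACCCcattttcccga

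*TIS11*, with 2 longer Aft sites in its window, had values of 456 in UWOPS03.461.4, 537 in UWOPS05.217.3 and 456 in UWOPS05.227.2, against 756 in BC187 and 1273 in RM11-1. The means were 483 ± 46.8 (SD, n = 3) and 1014.5 ± 366 (SD, n = 2), a ratio of the wine/European to the Malaysian mean of 2.10. The Malaysian strains were close to each other and below both wine/European strains, which themselves differed by 1.68 times. The log2 difference of -1.03 (standard error 0.25) did not pass (adjusted *P* = 0.0584 from limma). The difference was -0.65 without RM11-1 (adjusted *P* = 0.0608 from limma), and leaving out UWOPS03.461.4 or UWOPS05.227.2 gave an adjusted *P* of 0.192 or 0.193. It passed by a narrow margin after each column was rescaled by its median ratio (adjusted *P* = 0.0489 from limma) or after quantile normalization (adjusted *P* = 0.0423), and without BC187 (log2 difference -1.40, adjusted *P* = 0.015).

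*CTH1* was at 1951 in UWOPS03.461.4, 1863 in UWOPS05.217.3 and 1834 in UWOPS05.227.2, at 2262 in BC187 and at 3746 in RM11-1. RM11-1 stood apart from the other 4 strains, 1.66 times above BC187, and the Malaysian strains lay just below BC187. The log2 difference was -0.63 (standard error 0.22, adjusted *P* = 0.129 from limma), -0.99 without BC187 (adjusted *P* = 0.0131) and -0.27 without RM11-1 (adjusted *P* = 0.153). *TIS11* and *CTH1* are identical at 63.3% of 826 aligned coding bases, with a longest shared run of 8 bases. The AU-rich heptamer TATTTAT, the core of the elements that Tis11 and Cth1 bind in RNA, was searched on the coding strand in the 250 bases after the stop codon. It occurred in 15.7% of all genes and in 4 of the 9 regulators, *TIS11* (1 match), *CTH1* (4 matches, 2 of which overlap), *GRX4* (1) and *FRA1* (1).

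*GRX3* (chrIV:644178-644930) and *GRX4* (chrV:538434-539168) encode the monothiol glutaredoxins that hold an iron-sulfur cluster. They are the most similar paralogs of the set, identical at 71.1% of 724 aligned coding bases, so the stretch around the codons of the active site motif is shown here to let the copies be compared. Each stretch is 5′ to 3′ on the strand of the gene, and capitals mark the codons of the motif.
*GRX3*, chrIV:644385-644414, minus strand: gaacctaaaTGCGGGTTTTCGagacaactt
*GRX4*, chrV:538638-538667, minus strand: gaacctaaaTGCGGATTTTCTagacagtta
Their longest shared run over the whole alignment was 21 bases, and none of the 100-base windows of any of the 9 genes occurs more than once in the reference genome. No annotated gene overlaps any of the 9 genes, none of which has an intron.

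*GRX4* was the only regulator with higher values in Malaysian strains. It was at 7844 in UWOPS03.461.4, 4681 in UWOPS05.217.3 and 8218 in UWOPS05.227.2, against 3804 in BC187 and 3308 in RM11-1. All Malaysian strains were above both wine/European strains, and UWOPS05.217.3 was nearer to BC187 than to the other Malaysian strains. The means were 6914 ± 1943 (SD, n = 3) and 3556 ± 351 (SD, n = 2), a ratio of 1.94, and the log2 difference of 0.92 (standard error 0.27) did not pass (adjusted *P* = 0.0883 from limma). Without UWOPS05.217.3 it was 1.18 (adjusted *P* = 0.021 from limma), and without any 1 of the other strains the adjusted *P* was between 0.143 and 0.254.

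*GRX3* differed little. It was at 6413 in UWOPS03.461.4, 5365 in UWOPS05.217.3 and 6106 in UWOPS05.227.2, at 6891 in BC187 and at 6591 in RM11-1. Only 178 separated the highest Malaysian from the lowest wine/European value, and the log2 difference was -0.18 with a 95% interval from -0.47 to 0.11 (adjusted *P* = 0.342 from limma). In the Malaysian strains other than UWOPS05.217.3, *GRX4* was thus above *GRX3* in read count, and in the wine/European strains below it. The coding sequences, of 753 and 735 bases, are near equal in length.

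*FRA1* (chrXII:81461-83710), the cytosolic partner that is needed for the iron signal to reach Aft1, had the smallest adjusted *P* of the 9 genes. It was at 4850 in UWOPS03.461.4, 5287 in UWOPS05.217.3 and 5135 in UWOPS05.227.2, against 9477 in BC187 and 11284 in RM11-1. The gap of 4190 between the highest Malaysian and the lowest wine/European value exceeded the range within either population. The means were 5091 ± 222 (SD, n = 3) and 10380.5 ± 1278 (SD, n = 2), a ratio of the wine/European to the Malaysian mean of 2.04, and the log2 difference was -1.02 (standard error 0.12, adjusted *P* = 0.00934 from limma). When UWOPS03.461.4 was left out the adjusted *P* rose to 0.0643, and when UWOPS05.227.2 was left out to 0.0641, at log2 differences of -0.99 and -1.03, and between 0.0108 and 0.0276 without any of the other strains. In those 2 fits, with 1 Malaysian strain left out, the genes called over the whole table dropped from 630 to 107 and 112.

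*BOL2* (chrVII:82374-82736) encodes the BolA-like partner, the smallest protein of the set with 120 residues. It was at 11407 in UWOPS03.461.4, 12809 in UWOPS05.217.3 and 13125 in UWOPS05.227.2, at 13596 in BC187 and at 15694 in RM11-1. The populations were apart by only 471, and the log2 difference was -0.23 with a 95% interval from -0.54 to 0.07 (adjusted *P* = 0.26 from limma).

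Compared per length, the regulators covered a wide range of levels. As normalized counts per 1000 coding bases, over all 5 parents, *BOL2* was highest with 36711 ± 4283 (SD, n = 5), at percentile 93.8 of 5791 genes. *GRX3* followed with 8331 ± 773 (SD, n = 5), *GRX4* with 7580 ± 3133 (SD, n = 5), *FRA1* with 3203 ± 1320 (SD, n = 5) and *CTH1* with 2384 ± 827 (SD, n = 5). The transcription factors were near the bottom of this set, *AFT2* at 1590 ± 319 (SD, n = 5), *YAP5* at 1056 ± 157 (SD, n = 5) and *AFT1* at 937 ± 322 (SD, n = 5). Among the 5791 genes these lay at percentiles 39.8, 29.4 and 26.5. *TIS11* was lowest of the set at 811 ± 402 (SD, n = 5), at percentile 23.1. The ranges of *BOL2* and *GRX3* did not overlap, nor did those of *AFT2* and *YAP5*. All other neighbors in this order overlapped, so their order is not separated by the spread over strains.

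Within the populations, UWOPS05.217.3 stood outside the range of the other Malaysian strains at 6 of the 9 genes, above them at *AFT1*, *YAP5*, *TIS11* and *FRA1* and below them at *GRX3* and *GRX4*. Over all genes it was above both in 31.7% and below both in 51.6%, so a position outside is common. The difference of *GRX4* from the mean of the other Malaysian strains, -0.78 on the log2 scale, was past the 90th percentile of all genes (0.54), and the differences of the other 8 genes were not. RM11-1 differed from BC187 by 0.75 at *TIS11* and 0.73 at *CTH1* on the log2 scale, against a median size of 0.25 and a 90th percentile of 0.81 over all genes. These are differences between single libraries and were not tested.

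The hybrids address whether the alleles of a regulator differ when both share the same cell. The value of each allele counts only reads over positions at which the parents differ, so values can be compared between alleles but not between genes. In the unpaired limma comparison, after the study's design, 0 of the 9 regulators passed, against 4.71% of the 5738 genes tested, 2.63% with the Malaysian allele lower and 2.07% higher. Unadjusted, *GRX4* and *FRA1* had a *P* under 0.05 (17.6% of all genes did). The alleles of a hybrid share a library, and with the hybrid as a block only *GRX4* passed, with 17.9% of all genes passing, 9.01% higher and 8.87% lower. In that fit 4 regulators had an unadjusted *P* under 0.05, against 35.8% of all genes. At 4 of the 9 genes the alleles differed in the same direction in all 3 hybrids, beside 57.4% of all genes, with 3 lower (28.1% of all genes) and 1 higher (29.3%). At 3 genes the ranges of the alleles did not overlap, against 23.2% of all genes, 2 of them lower (11.3%) and 1 higher (11.9%). The plot of the allele values shows the 3 hybrids for each gene.

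**Figure D2:**
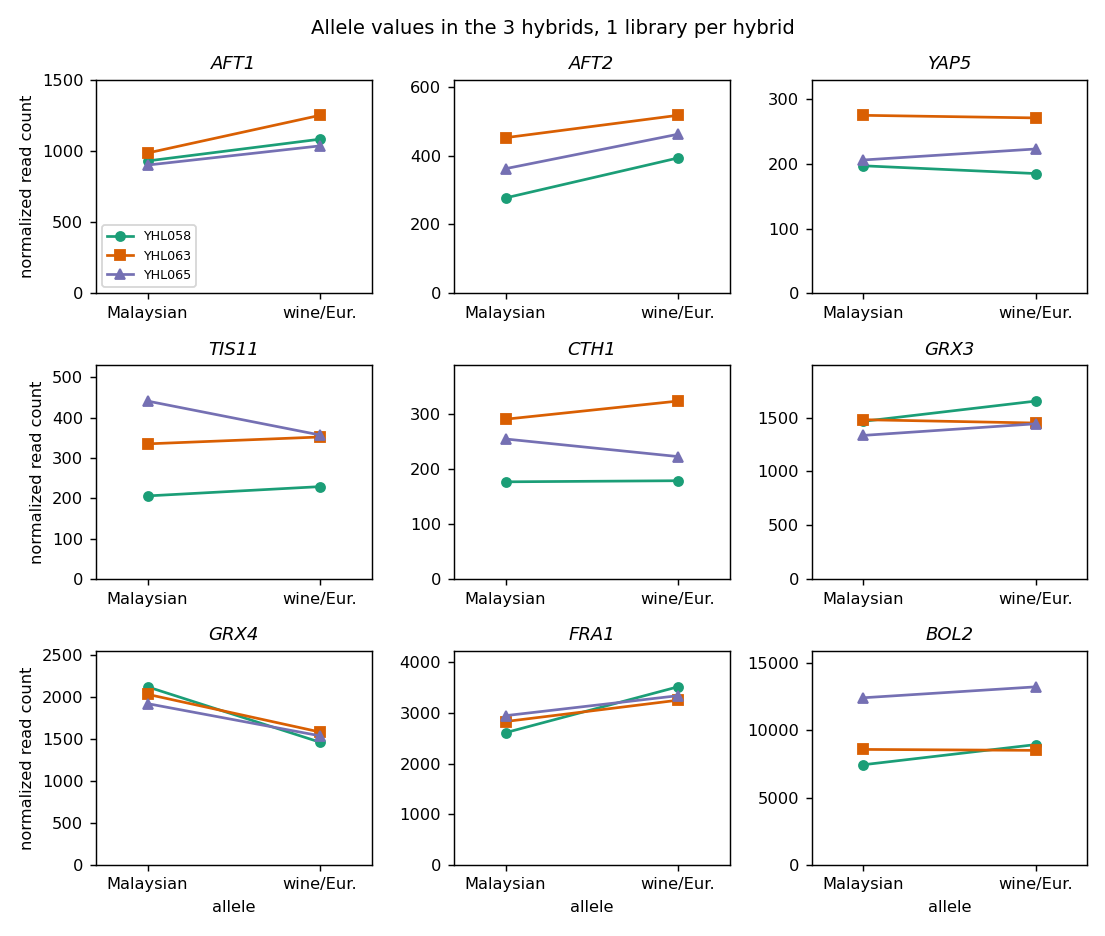
Normalized read counts of the Malaysian and wine/European alleles of the 9 genes in the 3 hybrids. Each line joins the alleles of 1 hybrid, and each panel has its own axis from 0. All 3 lines fall toward the wine/European allele at *GRX4* and rise toward it at *AFT1*, *AFT2* and *FRA1*.

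At *GRX4*, the Malaysian allele was at 2119 in YHL058, 2030 in YHL063 and 1919 in YHL065, and the wine/European allele at 1460, 1581 and 1536. The Malaysian allele was higher in all 3 hybrids, and the ranges did not overlap. The mean log2 ratio was 0.41 (standard error 0.10, adjusted *P* = 0.0803 from limma), and with the alleles paired by hybrid the standard error was 0.07 and the adjusted *P* 0.0246. The Malaysian allele in YHL065, which comes from UWOPS05.217.3, was 1919 and thus close to the UWOPS03.461.4 alleles, although the parent UWOPS05.217.3 was well below UWOPS03.461.4. The positions counted can differ between hybrids, and whether this bears on the comparison was not tested. The sum of both alleles was 3579, 3611 and 3455 in the 3 hybrids.

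At *FRA1*, the Malaysian allele was at 2609, 2829 and 2945 in YHL058, YHL063 and YHL065, and the wine/European allele at 3514, 3250 and 3339. The Malaysian allele was lower in all 3 hybrids without overlap. The log2 ratio was -0.43 in YHL058, the hybrid with RM11-1, and -0.20 and -0.18 in the hybrids with BC187. The mean of -0.27 did not pass unpaired (adjusted *P* = 0.236 from limma) or paired (adjusted *P* = 0.0676).

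At *AFT1*, the Malaysian allele was at 931, 987 and 902 and the wine/European allele at 1084, 1252 and 1037 in YHL058, YHL063 and YHL065. The ranges were apart, with the Malaysian allele lower by a mean log2 ratio of -0.25 (adjusted *P* = 0.339 unpaired and 0.0565 paired, from limma). At *AFT2*, the Malaysian allele was at 277, 452 and 362 and the wine/European allele at 393, 517 and 462. The Malaysian allele was lower within each hybrid, while the ranges over hybrids overlapped. The mean log2 ratio was -0.35 (adjusted *P* = 0.513 unpaired and 0.0696 paired, from limma).

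The remaining 5 genes had no common direction. At *TIS11*, the Malaysian allele was at 206, 335 and 441 and the wine/European allele at 229, 352 and 357 in YHL058, YHL063 and YHL065. The values differed more between hybrids than between alleles, and the sum of both alleles ran from 435 in YHL058 to 798 in YHL065. Whether a difference in the positions counted in each hybrid bears on this was not tested. The mean log2 ratio of *TIS11* was 0.03, with a 95% interval from -0.30 to 0.36 in the paired fit. At *CTH1*, the values were 177, 291 and 255 for the Malaysian and 179, 324 and 223 for the wine/European allele. In YHL058, whose wine/European allele is that of RM11-1, the alleles of *CTH1* were thus level, although RM11-1 had the highest parental value. Its mean log2 ratio was 0.01, with a 95% interval from -0.29 to 0.30 in the paired fit.

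*YAP5* had 197, 275 and 206 for the Malaysian and 185, 271 and 223 for the wine/European allele in YHL058, YHL063 and YHL065, and its mean log2 ratio was 0.00 with a 95% interval from -0.26 to 0.26 in the paired fit. *GRX3* had 1466, 1481 and 1335 against 1654, 1450 and 1443. *BOL2* had 7446, 8586 and 12431 against 8946, 8516 and 13243. Both alleles of *BOL2* were highest in YHL065, the library that according to the study has by far the fewest uniquely mapped reads. Whether this bears on its value of *BOL2*, or on the YHL065 values of the other genes, was not tested. The mean log2 ratios of *GRX3* and *BOL2* were -0.09 and -0.11, within paired 95% intervals from -0.26 to 0.09 and from -0.32 to 0.09.

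Set side by side, the parental and allelic log2 differences had the same sign, with parents apart and all hybrids in 1 direction, at 4 genes: *AFT1*, *AFT2* and *FRA1*, all lower, and *GRX4*, higher. Over the 5738 genes tested in both tables, 12.0% were lower and 13.5% higher by this rule. At *FRA1* the difference was -1.02 between parents and -0.27 between alleles, at *AFT1* -0.81 and -0.25, at *GRX4* 0.92 and 0.41, and at *AFT2* -0.46 and -0.35. The parental mean difference was larger in size at each of these genes, but it includes UWOPS05.227.2, which is in no hybrid. Set against the parents of each single hybrid, this did not always hold. At *GRX4*, UWOPS05.217.3 minus BC187 was 0.30, against 0.32 between the alleles of YHL065. At *AFT2*, UWOPS03.461.4 minus RM11-1 was -0.28, against -0.50 in YHL058. In all other crosses of these 4 genes the parental difference was the larger in size. At *TIS11* and *CTH1* the parental differences of -1.03 and -0.63 stood beside allelic differences of 0.03 and 0.01. The tables were normalized separately, and whether the parental and allelic differences differ from each other was not tested.

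**Figure D3:**
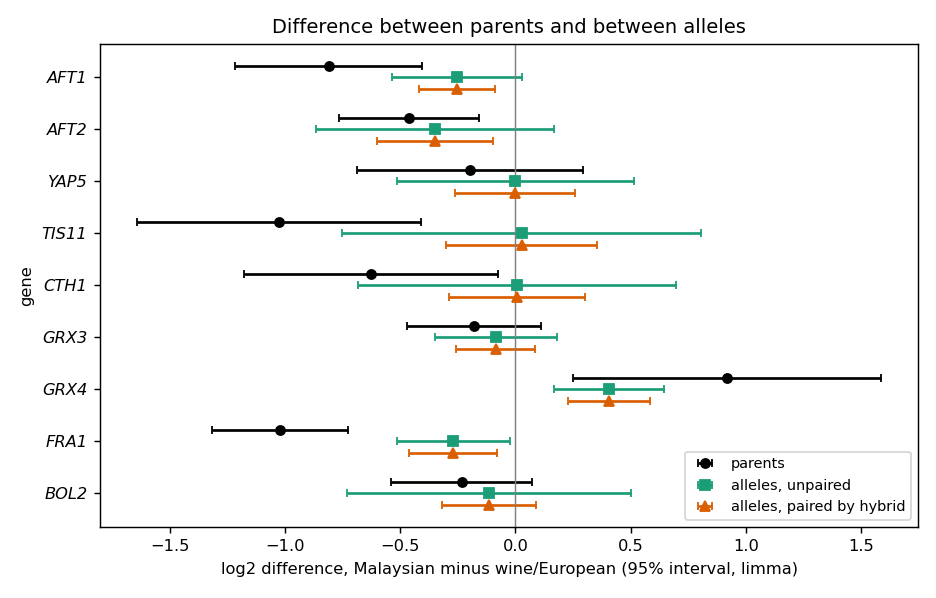
Log2 difference (Malaysian minus wine/European) of the 9 genes between parents (black) and between alleles in the unpaired (green) and paired (orange) limma fits. Points are estimates and bars 95% intervals. At *FRA1* the parental interval, from -1.32 to -0.73, lies below the unpaired allelic interval, from -0.51 to -0.03. At *TIS11* and *CTH1* the allelic estimates lie close to 0.

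The genes that these regulators act on were taken from lists compiled from general knowledge. Of 26 targets of Aft1 and Aft2, 10 passed in the parents, all lower in Malaysian strains, against 5.82% of all genes that were called lower, and the median log2 difference of the list was -0.96. Only 5 of the 26 were called lower when UWOPS03.461.4 was left out, and also 5 when UWOPS05.227.2 was. Among them, *ATX1*, the copper chaperone that loads the iron oxidase pathway, was at 5033 in UWOPS03.461.4, 5317 in UWOPS05.217.3 and 5253 in UWOPS05.227.2, and at 10804 and 8257 in BC187 and RM11-1. The log2 difference of *ATX1* was -0.86 (adjusted *P* = 0.0225 from limma), and the adjusted *P* was between 0.0518 and 0.115 without any 1 of the Malaysian strains. Between alleles, 2 of the 25 targets tested were called higher (2.07% of all genes) and 2 lower (2.63%), with a median of 0.06. When the alleles were paired by hybrid, 4 were called higher (9.01% of all genes) and 4 lower (8.87%). The calls gained by pairing were *FTR1* and *ARN1*, higher, and *SIT1* and *SMF3*, lower. *HMX1*, the heme oxygenase that releases iron from heme, was among those higher. In the parents it was at 3464, 4244 and 3188 in the Malaysian strains against 393 in BC187 and 1693 in RM11-1. These ranges were apart in the direction opposite to that of the 10 targets called lower, but the log2 difference of 2.14 did not pass (adjusted *P* = 0.0794 from limma). Its Malaysian allele was at 973, 745 and 923 and its wine/European allele at 490, 496 and 511 in YHL058, YHL063 and YHL065 (log2 ratio 0.81, adjusted *P* = 0.0283 from limma, and between 0.122 and 0.282 when any hybrid was left out).

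Of the Yap5 targets, *CCC1*, *TYW1* and *GRX4* were in the tables and differed in direction. *CCC1* was at 7963 and 7961 in UWOPS03.461.4 and UWOPS05.227.2, but at 3884 in UWOPS05.217.3, 4473 in BC187 and 5109 in RM11-1. This split of the Malaysian strains is that seen for *GRX4*, with UWOPS05.217.3 low at both genes, while for *CCC1* the populations overlapped (log2 difference 0.39, adjusted *P* = 0.486 from limma). *TYW1*, an iron-sulfur enzyme of tRNA modification, fell. It was at 9894 in UWOPS03.461.4, 13381 in UWOPS05.217.3 and 8474 in UWOPS05.227.2, against 39356 in BC187 and 27152 in RM11-1, a log2 difference of -1.65 (adjusted *P* = 0.0188 from limma, 0.0908 with UWOPS03.461.4 left out and 0.0766 with UWOPS05.227.2 left out). Its log2 ratio between alleles was -0.77 (adjusted *P* = 0.083 unpaired and 0.00809 paired, from limma).

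Of 7 mRNA targets of Tis11 and Cth1, most of them from respiration, heme or lipoic acid synthesis, 0 passed in the parents (limma, with 0 at an unadjusted *P* under 0.05), and their median log2 difference was 0.23, with 5 above 0 and 2 below. The AU-rich heptamer was found after the stop codon of 6 of the 7. In the hybrids, the Malaysian allele of *ACO1*, the aconitase gene, was higher, at 35196, 43262 and 36065 in YHL058, YHL063 and YHL065 against 15447, 16780 and 17547 for the wine/European allele (log2 ratio 1.20, adjusted *P* = 0.0112 from limma, and between 0.0607 and 0.282 when any hybrid was left out). *CCP1*, which encodes the heme protein cytochrome c peroxidase, had a log2 ratio of -0.53 (adjusted *P* = 0.346 unpaired and 0.0107 paired, from limma), so that pairing left 1 target of the list called higher and 1 lower.

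Of 6 genes that act with the regulators in nuclear transport, repression and mRNA decay, 1 passed in the parents, beside 10.9% of all genes. This gene, *DHH1*, the RNA helicase through which Cth2-bound mRNAs are degraded, rose in Malaysian strains. It was at 2515 in UWOPS03.461.4, 1969 in UWOPS05.217.3 and 2317 in UWOPS05.227.2, against 1132 in BC187 and 1260 in RM11-1 (log2 difference 0.92, adjusted *P* = 0.0194 from limma, 0.0938 with UWOPS03.461.4 left out and 0.101 with UWOPS05.227.2 left out). The importin gene *PSE1* and the exportin gene *MSN5*, which carry Aft1 into and out of the nucleus, had log2 differences of -0.01 and 0.60 and did not pass (adjusted *P* = 0.967 and 0.0674 from limma).

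Some relatives of the regulators passed as well. Of 7 other Yap factors, 3 passed in the parents, 1 higher and 2 lower, beside 10.9% of all genes, and the median log2 difference of the family was -0.06. *YAP7*, the paralog of *YAP5*, was at 740 in UWOPS03.461.4, 850 in UWOPS05.217.3 and 685 in UWOPS05.227.2, against 1631 in BC187 and 1794 in RM11-1, a log2 difference of -1.18 (adjusted *P* = 0.00996 from limma, 0.0643 with UWOPS03.461.4 left out and 0.0579 with UWOPS05.227.2 left out). The Malaysian allele of *YAP7* was also lower, with 203, 332 and 284 against 481, 608 and 596 in YHL058, YHL063 and YHL065 (log2 ratio -1.06, adjusted *P* = 0.0479 from limma, 0.0548 without a mean-variance trend, and between 0.0616 and 0.375 when any hybrid was left out). *ARR1*, the arsenic response factor of the family, fell by 4.86 on the log2 scale (adjusted *P* = 0.00316 from limma), with 90, 95 and 53 in the Malaysian strains against 1701 in BC187 and 3004 in RM11-1. Its wine/European allele was at 597 in YHL058 but at 83 and 85 in YHL063 and YHL065, beside 54, 80 and 91 for the Malaysian allele (log2 ratio -1.13, adjusted *P* = 0.571 from limma). *CIN5*, the salt tolerance factor, rose by 1.97 on the same scale (adjusted *P* = 0.013 from limma, and 0.0623 without UWOPS03.461.4). Of 6 other glutaredoxins, only *GRX1* passed, beside 10.9% of all genes, with a log2 difference of 0.58 (adjusted *P* = 0.0355 from limma). It did not pass without UWOPS03.461.4, UWOPS05.227.2 or RM11-1 (adjusted *P* = 0.162, 0.165 and 0.062). Between its alleles the log2 ratio was 0.36 (adjusted *P* = 0.115 unpaired and 0.0282 paired, from limma). Pairing also brought *CAD1* (log2 ratio -0.81, adjusted *P* = 0.243 unpaired and 0.0400 paired) and *YAP6* (0.64, adjusted *P* = 0.579 unpaired and 0.0264 paired) past the threshold. The 2 other BolA genes did not pass, with log2 differences of 0.26 at *BOL1* and 0.41 at *BOL3*.

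**Figure D4:**
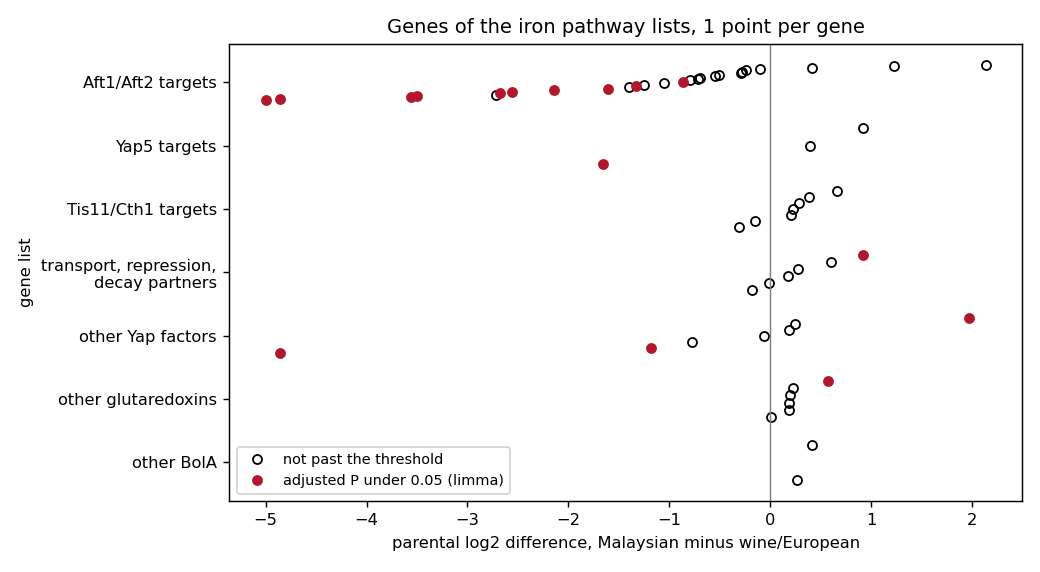
Parental log2 difference (Malaysian minus wine/European) of the genes in each list, 1 point per gene, filled red where the adjusted *P* from limma was under 0.05. Of the 26 Aft1 and Aft2 targets, 10 are filled, all left of 0. *GRX4* is among the Yap5 targets.

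The genes whose pattern was most like that of a regulator were found by Pearson's correlation of log2(value + 1) over the 11 columns, 5 parents and 6 alleles, each table centered on its own mean, among 5335 genes with a mean of at least 100 in both tables. The columns share libraries and normalization, so the correlations are given as a description. For *AFT1* they were the transcription initiation factor gene *SUA7* (r = 0.966), the vacuolar transporter gene *VMR1* (r = 0.966) and *FRE6* (r = 0.950), the vacuolar iron reductase gene of the Aft1 target list. The parental log2 differences of these genes were -0.13, -3.12 and -1.60, so their shape over the columns was alike but not the size. For *TIS11* they were *STP22* (r = 0.933), *MSM1* (r = 0.932) and *ULP2* (r = 0.927), and for *YAP5* they were *SGF29* (r = 0.873), *SLS1* (r = 0.860) and *CDC50* (r = 0.852).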

How the data were processed

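According to the study, RNA-seq reads were mapped with Bowtie (version 0.12.7 per the submitters' processing notes) to strain genomes amended with SNPs, and only unique reads without mismatches were kept. The mapping build is not given beyond S288C in the sources used here. Reads were summed per gene and normalized with EDASeq for GC content and upper quartile. The authors deposited the result as whole numbers for 5797 genes, which are a normalized score and not raw counts, so no count model was used. The authors' means, fold changes, log2 fold changes and p-values, in 14 columns, were not used. DESeq was the authors' tool. The kit and counting are not stated to use strand.

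Genes whose mean reached 10 entered the comparison, on log2(value + 1) with limma 3.58.1 in R 4.3.3 (mean-variance trend, Benjamini-Hochberg over all genes tested, adjusted *P* under 0.05), in each table apart. Only the whole-table fits gave calls. The alleles of a hybrid come from the same library. Their deviations from the allele means correlated at 0.476 to 0.669 across 5738 genes, against -0.530 to 0.102 for alleles of different hybrids. Each mean is over only 3 hybrids, so the centering itself pulls the values for different hybrids down. They are thus no independent baseline. Because the alleles of a hybrid share a library, the paired result, as a value or as a call, is given where it changes a call. Of the identifiers, 5792 are in the RefSeq annotation of S288C R64, from which names, coordinates and sequences were read with Python 3.11.15 and Biopython 1.88. The named genes are the 9 regulators, a selection of the list genes past the threshold in either table, and the 3 genes most like each of *AFT1*, *YAP5* and *TIS11*. *CCC1*, *PSE1*, *MSN5*, *BOL1* and *BOL3*, and genes past the threshold only when paired, fall outside this rule and were chosen after their values were seen. The members and lists were chosen with earlier results of these data known. *CUP1-1* and *CUP1-2* of the Yap5 list were not analysed here.

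The counts of genes and of regulators called, that of Aft targets called in the parents, the differences of the 9 regulators and those of list genes called in the same table were recomputed with another pseudocount (0.5 and 10), with no filter, with a minimum mean of 100, median-ratio rescaling, quantile normalization, no trend, each library left out and, for alleles, the hybrid as a block.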

Additional observations from a re-analysis of the deposited data

How the results depend on the processing

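In the parents, 2 regulators were called, and 0 without UWOPS03.461.4 or UWOPS05.227.2, and 4 without BC187, a range of 0 to 4 when 1 library was left out. With a single wine/European strain left, that strain is assumed to vary like the Malaysian ones. The genes called over the whole table were 630, and between 107 and 1011 without 1 library. Of 108 single values of the 9 genes under the parental alternatives, 97 kept direction and side of the threshold, 5 lost the call, 6 gained it and 0 changed sign. Between alleles, 270 genes were called, between 12 and 155 without 1 hybrid and 1026 with the hybrid as a replicate block, in which 1 regulator, *GRX4*, passed against 0 without the block. The block changed no other call among the 9. Of 99 allelic values, 4 changed sign, all close to 0: with 1 hybrid left out, *CTH1* ranged from -0.085 to 0.088, *TIS11* from -0.112 to 0.116 and *YAP5* from -0.046 to 0.056, each changing sign without YHL065, and with quantile normalization *YAP5* was at 0.024. The cause was not tested. The choice to run the alternatives for list genes as well was made after seeing the data. Precision is limited by 1 culture per strain, and depth is not shown by these values.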
